A study of Homo sapiens with 5 samples.

Results

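The UGT2B genes encode UDP-glucuronosyltransferases of the endoplasmic reticulum, and the mRNA of 7 of them (UGT2B4, UGT2B7, UGT2B10, UGT2B11, UGT2B15, UGT2B17 and UGT2B28) was followed here over 5 bead arrays of prostate cancer cells. They were taken as every probe that the platform table assigns to one of these symbols, which gave 13 probes for 7 of the 20044 genes with a named probe. Of the 7 genes, 5 were detected on at least 1 array, as were 11808 genes in all. The family was chosen by its measured differences on these same arrays, above all its low signal with TGFB3, so all its values are given as a description.

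These enzymes transfer glucuronic acid from UDP-glucuronic acid to small molecules, which makes them soluble for excretion. UGT2B15 and UGT2B17 are the main enzymes that inactivate dihydrotestosterone and its metabolites in the prostate, and androgens are known to repress both genes in LNCaP cells. FOXA1 is a forkhead factor that opens chromatin at enhancers in luminal cells.

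Each condition was measured on 1 array. LNCaP is an androgen-responsive line from a prostate cancer metastasis, and LNRII is a stable puromycin-selected derivative that carries TGFBR2, a receptor of TGF-beta, from a lentivirus with the CMV promoter; whether it is a clone is not stated. LNRII received vehicle or the ligand TGFB3 (5 ng/ml) for 3 days. The LNCaP cultures were infected with a virus carrying a control hairpin (shCtr), a hairpin against FOXA1 (shFOXA1), or with the latter plus 3 days of 10 µM LY2157299 (galunisertib, which blocks the kinase of TGFBR1), and these arrays are labelled day 10. Puromycin selection followed infection, and whether the LNCaP cultures without LY2157299 received vehicle is not given for each array. All cultures were grown in RPMI with serum and are labelled wild type. With no replicate, no p-value or replicate error exists for any difference, and the lines also differ in virus and days, so line, virus and time cannot be told apart. The only error available is the probe SD, the SD of a difference read by 1 probe, taken from how pairs of probes of the same gene disagree. Variation from culture to culture is not in it.

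Values are log2 intensities after background correction and quantile normalization over the 5 arrays. They include an offset of 16, so a percentage of signal below is that of values with this offset. For dim probes the offset brings such percentages nearer to no change. A probe was called detected at a detection p below 0.01 against the negative controls of its array, and genes are called higher or lower at 2-fold or more. The LNRII control array stood apart in sensitivity, with 32.3% of all probes detected and a detection floor of 5.03, against 37.0% to 38.1% and floors of 4.67 to 4.72 on the other 4. All 7 luminal markers with a named probe (KLK2, KLK3, HOXB13, TMPRSS2, FOLH1, KRT8 and KRT18) were detected on every array, while the fibroblast list had 0 or 1 of 5 detected, the basal list KRT14 on the 3 LNCaP arrays and the blood list CD68 alone. Of 5 hepatocyte markers 1 to 3 were detected, ALB on every array and APOB and CYP3A4 on none. FOXA1 read 11.82 with shCtr, 11.26 with shFOXA1 and 11.30 with LY2157299 added, so the knockdown array kept 67.8% of the control signal; in LNRII it read 11.81 with vehicle and 11.92 with TGFB3.

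Sequences upstream of the gene start are shown for the 4 of 7 members with an entry in the promoter table (RefSeq, GRCh38.p14), because FOXA1 was the gene targeted in LNCaP. Each window holds the 250 bases before the start on the gene's own strand, with the forkhead core TGTTTA or its reverse complement TAAACA and the nuclear receptor hexamer AGGTCA in capitals. UGT2B15 lies on the minus strand at chr4:68670653-68670902, UGT2B10 on the plus strand at chr4:68815744-68815993, UGT2B11 on the minus strand at chr4:69214749-69214998, and UGT2B7 on the plus strand at chr4:69096224-69096473.
UGT2B15: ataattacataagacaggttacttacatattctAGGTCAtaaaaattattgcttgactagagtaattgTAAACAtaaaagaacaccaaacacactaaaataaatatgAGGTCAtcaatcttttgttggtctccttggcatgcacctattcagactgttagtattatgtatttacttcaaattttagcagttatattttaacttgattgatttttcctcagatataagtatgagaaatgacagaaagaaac
UGT2B10: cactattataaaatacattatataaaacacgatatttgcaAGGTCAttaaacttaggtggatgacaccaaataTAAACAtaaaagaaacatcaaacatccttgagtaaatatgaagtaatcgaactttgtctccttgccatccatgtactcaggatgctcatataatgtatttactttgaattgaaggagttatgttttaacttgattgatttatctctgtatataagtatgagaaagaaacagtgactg
UGT2B11: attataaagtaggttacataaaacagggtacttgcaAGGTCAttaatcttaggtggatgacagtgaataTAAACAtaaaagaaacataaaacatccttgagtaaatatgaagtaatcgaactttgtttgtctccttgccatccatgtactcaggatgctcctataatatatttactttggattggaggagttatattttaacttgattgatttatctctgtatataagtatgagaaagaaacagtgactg
UGT2B7: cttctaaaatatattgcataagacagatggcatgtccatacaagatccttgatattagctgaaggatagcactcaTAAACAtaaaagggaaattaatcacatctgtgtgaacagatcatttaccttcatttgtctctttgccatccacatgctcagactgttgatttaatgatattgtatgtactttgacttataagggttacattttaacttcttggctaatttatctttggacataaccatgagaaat

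All 4 windows held 1 match to the forkhead core, starting at -182 in UGT2B15, -181 in UGT2B11, -177 in UGT2B10 and -175 in UGT2B7 relative to the gene start. Among all 35116 windows of this length, 11.0% held it on either strand. The 4 windows are related sequences with the core at nearly the same place, so their matches are not independent. Binding of FOXA1 was not tested. The longer form TGTTTAC, which contains the core, occurred in UGT2B15 alone of the 4 and in 2.98% of all windows. AGGTCA occurred at 2 places in UGT2B15 and at 1 each in UGT2B10 and UGT2B11, against 12.1% of all windows. The steroid receptor hexamer AGAACA was found in UGT2B15 alone of the 4 (12.4% of all windows), and the HNF1 hexamer GTTAAT (6.23%) and the SMAD palindrome GTCTAGAC (0.182%) in none. The UGT2B10 and UGT2B11 windows were 90.2% identical over their alignment, and the other pairs between 61.3% and 71.4%. UGT2B7, whose probe was not detected on any array, held the forkhead core as well.

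Of the 13 probes, 7 were detected on all 5 arrays, 2 on some and 4 on none. The probe sequences are not used here. Members of this family have closely related transcripts, and a probe of 1 member may also bind others, so a level cannot be assigned to 1 member with certainty and probes of different members are not independent readings.

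UGT2B17 was read by 4 probes. Its brightest probe read 10.67 in LNRII with vehicle, 6.18 in LNRII with TGFB3, 7.90 with shCtr, 6.52 with shFOXA1 and 7.12 with shFOXA1 and LY2157299. As scanned, before background correction, this was an intensity of 1564 on the first array and of 153 to 328 on the others. The LNRII vehicle culture was the highest and the TGFB3 culture the lowest, with the 3 LNCaP cultures between. The TGFB3 reading lay 0.34 below that with shFOXA1, which is under 2 probe SDs of 0.27. The second probe read 10.01, 5.57, 7.24, 5.93 and 6.80 on the arrays in the same sequence, and so gave the same order. A dimmer probe was detected in LNRII with vehicle (7.22), with shCtr (4.99) and with shFOXA1 and LY2157299 (4.84), and not on the remaining arrays. The fourth UGT2B17 probe was not detected on any array, with detection p between 0.061 and 0.942.

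UGT2B15, the other main androgen-conjugating enzyme, read 9.51 in LNRII with vehicle, 5.54 with TGFB3, 6.34 with shCtr, 5.54 with shFOXA1 and 5.98 with LY2157299 added. Here the TGFB3 and shFOXA1 cultures shared the lowest place, 0.0043 apart. Its second probe was detected in LNRII with vehicle only, at 6.17.

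UGT2B28, which can also conjugate androgens, has 1 probe. It read 10.65 in LNRII with vehicle, 7.20 with TGFB3, 7.92 with shCtr, 6.24 with shFOXA1 and 6.28 with LY2157299 added. In this gene the lowest readings were those of both knockdown cultures, and the TGFB3 culture lay above them by at least 0.92, which is over 2 probe SDs of 0.27.

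UGT2B11, whose substrates are poorly known, read 11.46 in LNRII with vehicle, 7.84 with TGFB3, 8.69 with shCtr, 6.94 with shFOXA1 and 7.38 with LY2157299 added. Its second probe read 11.29, 7.31, 8.30, 6.91 and 7.51 in the same sequence. Both probes put shFOXA1 lowest, but they disagree on whether TGFB3 or shFOXA1 with LY2157299 comes next.

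UGT2B10, which conjugates amines such as nicotine, has 1 probe. It read 9.21 in LNRII with vehicle, 5.25 with TGFB3, 6.02 with shCtr, 4.95 with shFOXA1 and 4.99 with LY2157299 added. The lowest 3 readings, with TGFB3 and in both knockdown cultures, lie close to the detection floors.

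UGT2B7, a broad-range enzyme known for morphine conjugation, was read by 1 probe, and UGT2B4, known for bile acids, by 2. None of these was detected on any array, with the lowest detection p at 0.040 for UGT2B7 (shCtr) and 0.058 for UGT2B4 (LNRII with vehicle). Low mRNA and a probe that reads poorly cannot be told apart here. A UGT2B17 probe was likewise undetected on every array, although other probes of that gene were bright.

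**Figure D1:**
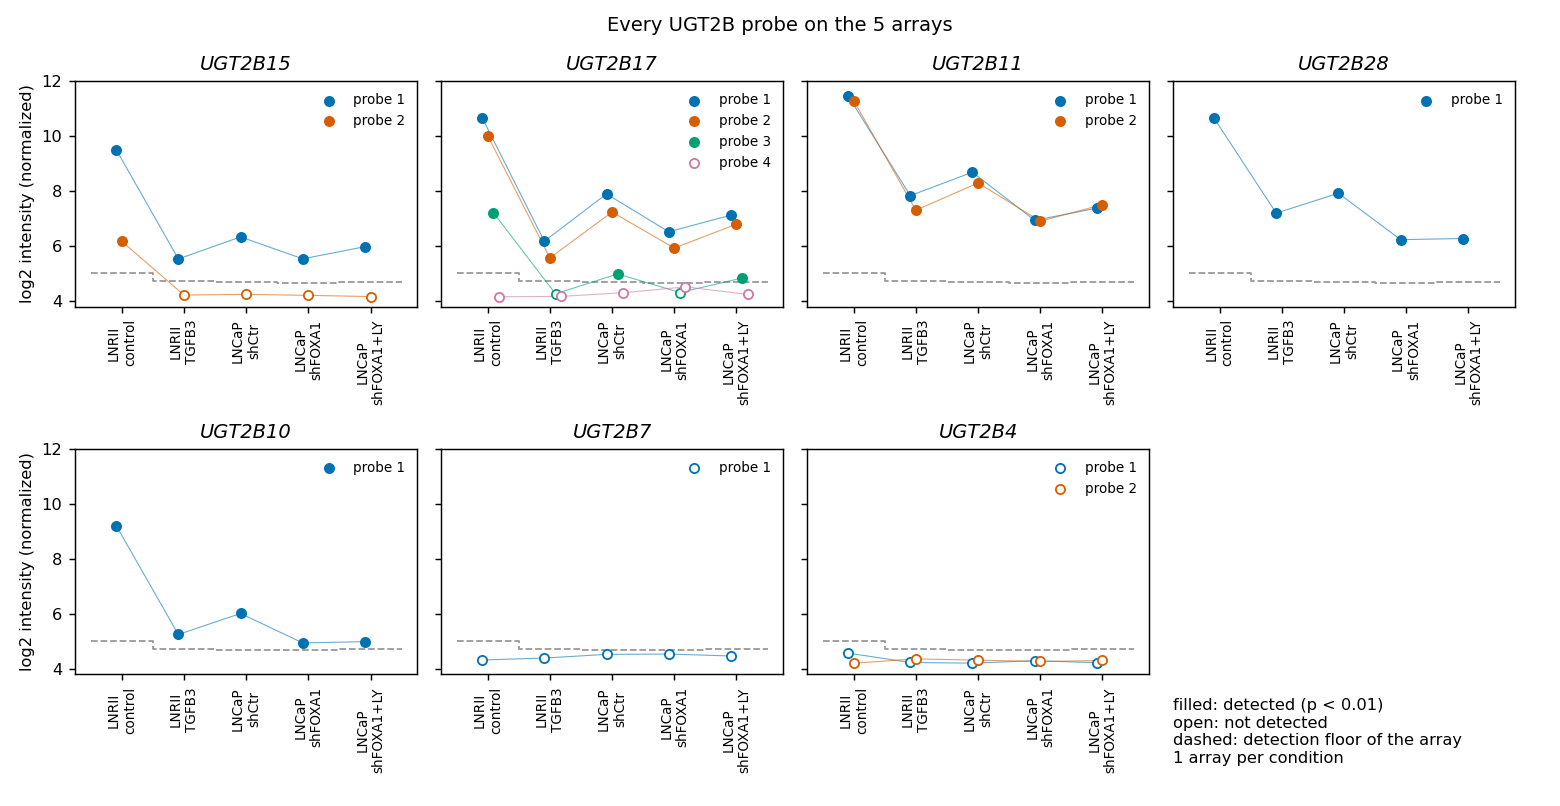
Normalized log2 intensity (y axis) of every UGT2B probe on the 5 arrays (x axis, 1 culture each), with 1 panel per gene and 1 colour per probe. Filled points were detected, open points were not, and the dashed line is the detection floor of each array. In all 5 detected genes the LNRII vehicle array is the highest and the shCtr array the second highest on the brightest probe, while UGT2B7 and UGT2B4 stay at the bottom.

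The 5 detected genes shared this ordering at the top and differed at the bottom. For each gene the gap between the LNRII vehicle and shCtr readings was 2.73 to 3.20, and that from shCtr to the next array was 0.36 to 0.85. On the brightest probe the next after shCtr was the culture with LY2157299 for UGT2B15 and UGT2B17, and LNRII with TGFB3 for UGT2B10, UGT2B11 and UGT2B28. Between these cultures UGT2B10 (0.26 apart) and UGT2B11 (0.46) differed by less than 2 probe SDs, and the second UGT2B11 probe gave the opposite order. The steps after shCtr were over 2 probe SDs for all but UGT2B15 (0.36 against a probe SD of 0.18). Over the 5 arrays each gene correlated with the mean of the others at Pearson's r between 0.966 and 0.996, a description over 5 points that share arrays and are set largely by the LNRII vehicle reading.

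The comparison of LNRII with and without TGFB3 asks how the ligand changes expression in cells given the receptor. All 5 detected members were lower with TGFB3, and they were the 5 lowest differences of the 10711 genes measured. UGT2B17 fell by 4.49 on the log2 scale, to 4.45% of the vehicle signal. The differences were -3.98 for UGT2B15, -3.96 for UGT2B10, -3.63 for UGT2B11 and -3.45 for UGT2B28, which left 6.36%, 6.43%, 8.09% and 9.14%. Without background correction the differences were smaller, at -3.55 for UGT2B17, -3.27 for UGT2B11, -2.94 for UGT2B28, -2.76 for UGT2B15 and -2.59 for UGT2B10. The share of all genes lower by 2-fold was 1.16%, and the probe SD was 0.22. The contrast that drew attention to the family was this one, so nothing further is read from the count.

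Other probes gave the same direction. The second UGT2B17 probe fell by 4.44 and the second UGT2B11 probe by 3.98. The dim UGT2B17 probe and the second UGT2B15 probe, undetected with TGFB3, were lower by at least 5.65-fold and at least 2.73-fold.

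Both LNRII cultures were also set against shCtr. There, the vehicle culture was higher in all 5 genes, by 3.20 for UGT2B10, 3.17 for UGT2B15, 2.78 for UGT2B11, 2.77 for UGT2B17 and 2.73 for UGT2B28. Of 10847 genes 2.18% were higher by 2-fold there and 3.07% lower, and the 5 members held places between 7 and 13 from the top. Against the same shCtr array, LNRII with TGFB3 was lower in all 5, but only UGT2B17 passed 2-fold (-1.72), with the others between -0.85 and -0.72; 2.53% of 11194 genes were lower by 2-fold and 3.06% higher. The probe SDs were 0.27 and 0.26. An effect of TGFB3 and an unusually high vehicle culture cannot be told apart with 1 culture each.

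A list of androgen-induced genes was read on the same arrays. In LNRII with vehicle 11 of 23 measured genes of this list were lower than with shCtr and 0 higher, the list median being -0.73 beside 0 for all genes; KLK4 (-2.47), EAF2 (-2.38), PMEPA1 (-2.35) and ELL2 (-2.06) were the lowest. With TGFB3 against vehicle, 8 of 23 measured genes of the list were higher by 2-fold and 0 lower, where 1.87% of all genes were higher. PTGER4 (2.67), PMEPA1 (2.57), MAF (at least 2.28) and HERC3 (1.91) were the highest. KLK3 (0.83), FKBP5 (0.64) and KLK2 (0.46) did not reach 2-fold, 3 genes lay below 0, and the list median was 0.64. Whether these genes rose through androgen signalling was not tested. In LNRII with TGFB3 against shCtr, where all 5 UGT2B genes read lower, 6 of 24 were lower and 2 higher, and the list median was -0.03. Their part in the UGT2B values was not tested. Of 5 measured androgen-repressed genes outside the family, 1 was higher by 2-fold with TGFB3 (SERPINI1, 1.11) and 0 lower. The other 4 lay below 0, OPRK1, an opioid receptor gene, at -0.52, MET at -0.22, BCHE at -0.14 and CAMK2N1 at -0.02, and the list median was -0.14. In LNRII with vehicle against shCtr, OPRK1 was higher (1.49) and BCHE stood at 0.85. MET stood at 0.12, SERPINI1 at -0.01 and CAMK2N1 at -0.45, and the list median was 0.12. In LNRII with TGFB3 against shCtr, where the UGT2B genes read lower, the list median was 0.71. SERPINI1 was higher there (1.10), OPRK1 stood at 0.97, BCHE at 0.71, MET at -0.10 and CAMK2N1 at -0.47.

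**Figure D2:**
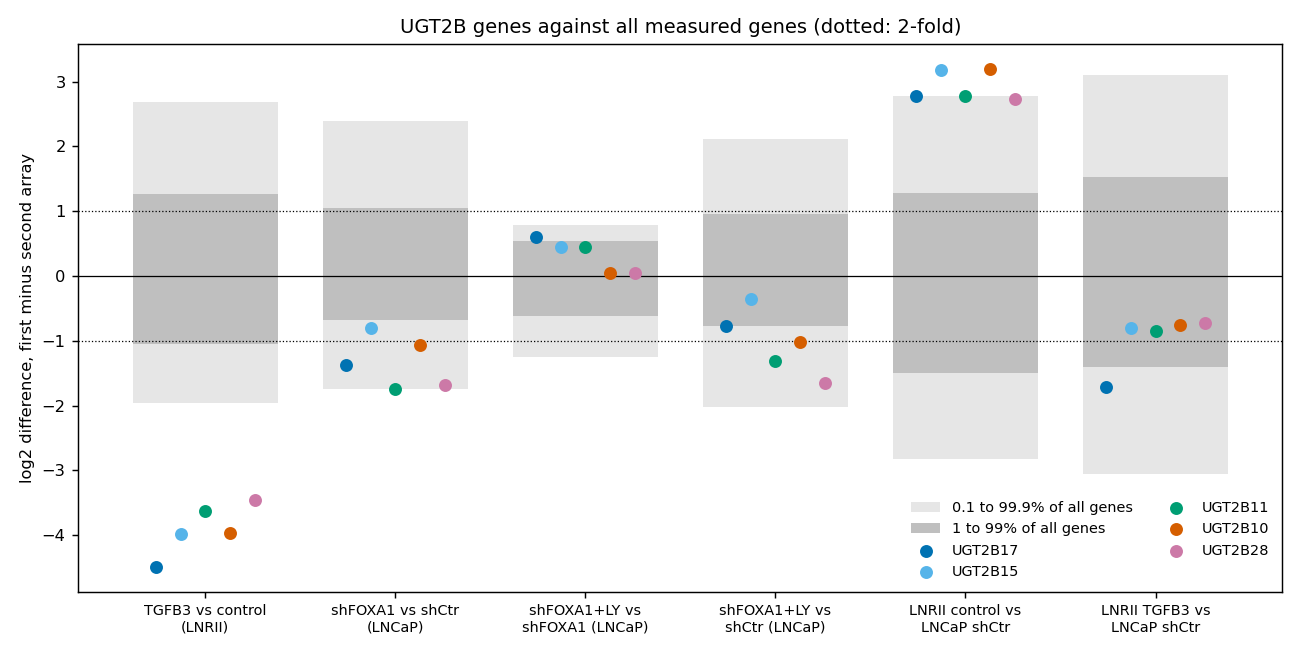
Log2 difference of each detected UGT2B gene (coloured points) in 6 comparisons, first array minus second. Dark and light grey bands hold the central and the wider range of all measured genes, at the quantiles named in the key, and dotted lines mark 2-fold. All 5 points lie below both bands for TGFB3 against vehicle, below the dark band after knockdown, and above 0 for LY2157299 against shFOXA1, where UGT2B17 (0.60) lies above the dark band.

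FOXA1 knockdown in LNCaP asks which transcripts depend on FOXA1. It used arrays other than those of the TGFB3 contrast. The family was chosen with these arrays known too, so the count below is a description only. All 5 detected members lay below shCtr and 4 of them were lower by 2-fold, where 0.377% of 11132 genes were. UGT2B11 stood at -1.75 (29.8% of the shCtr signal), UGT2B28 at -1.69 (31.1%), UGT2B17 at -1.37 (38.6%) and UGT2B10 at -1.07 (47.6%). UGT2B15 stood at -0.80 (57.6%) and did not reach 2-fold with the offset included. The count of 4 fell to 2 without background correction, where UGT2B17 stood at -0.92 and UGT2B10 at -0.41, and to 3 with offset 50 or detection p below 0.001, where UGT2B10 stood at -0.61 and -0.82. UGT2B11 and UGT2B28 held places 12 and 13 from the bottom of all genes, and UGT2B15 was in place 69. The probe SD was 0.17 over 2097 genes with 2 detected probes, and 0.19 over the 1049 of them whose probes both read between 5 and 8.5.

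With the offset, the difference was not the same size in every member. UGT2B11 lay 0.95 below UGT2B15, where the probe SD of such a gap is 0.24. The second UGT2B11 probe stood nearer to UGT2B15, at -1.39. The offset shrinks differences of dim probes most, and UGT2B15 and UGT2B10 were dimmer than UGT2B11. In the submitters' processed intensities, which lack this offset, UGT2B15 read 66.5 with shCtr and 32.4 with shFOXA1. UGT2B10 read 50.9 and 15.9 there, and UGT2B11 379.5 and 107.9. Among these, UGT2B15 still differed least, while UGT2B10 came close to UGT2B11. The second UGT2B17 probe (-1.31) was close to the first. The dim UGT2B17 probe that was undetected with shFOXA1 read at least 1.25-fold lower. FOXA1 itself stood at -0.56 in this comparison. Of 23 measured androgen-induced genes 3 were higher after knockdown, MAF (1.94) and NDRG1 (1.61) most, and 2 lower, HPGD (-1.76) and SLC45A3 (-1.67), the list median being 0.0043. Among 5 measured androgen-repressed genes outside the family, CAMK2N1 was higher (1.14) and BCHE, a cholinesterase gene, lower (-1.62).

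LY2157299, the blocker of the TGF-beta receptor kinase, was given to knockdown cells only, and no shCtr array with the drug exists. What the drug does to these genes without knockdown was therefore not tested. The comparison describes knockdown cells with and without the drug, and does not show what part of the knockdown pattern needs the kinase. No member changed by 2-fold, in a comparison where 0.0545% of 11002 genes were higher and 0.209% lower by that much. UGT2B17 stood at 0.60 above shFOXA1 alone, UGT2B11 at 0.44, UGT2B15 at 0.44, UGT2B10 at 0.05 and UGT2B28 at 0.04, with a probe SD of 0.15. UGT2B17 was in place 60 from the top, UGT2B11 in place 241 and UGT2B15 in place 244, while UGT2B10 and UGT2B28 were near the middle. The second probes gave 0.87 for UGT2B17 and 0.60 for UGT2B11, and the dim UGT2B17 probe went from undetected to detected.

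By the probe SD, UGT2B17 alone stood apart from the lowest members here when each gene was read by its brightest probe. The second UGT2B11 probe, at 0.60, was as high as the brightest UGT2B17 probe, so this depends on the probe chosen. UGT2B17 exceeded UGT2B28 by 0.56 and UGT2B10 by 0.55, where the probe SD of a gap is 0.22. UGT2B11 and UGT2B15 exceeded UGT2B28 by 0.40 each and lay 0.16 below UGT2B17, all under 2 such SDs. UGT2B10 read 4.95 and 4.99 where the detection floors were 4.67 and 4.71, whereas UGT2B28 at 6.24 and 6.28 was well above them. In the same comparison 1 of 23 androgen-induced genes was lower (NDRG1, -1.18) and 0 higher, the list median being -0.19, and 0 of 5 androgen-repressed genes passed 2-fold.

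Relative to shCtr, the cells with knockdown and LY2157299 still read lower for all 5 members, 3 of them by 2-fold, where 0.517% of 11019 genes were; without background correction, with median scaling, with offset 50 or with detection p below 0.001 the count was 2. UGT2B28 kept 32.0% of the shCtr signal, UGT2B11 40.5%, UGT2B10 49.2%, UGT2B17 58.6% and UGT2B15 78.2%. The probe SD of these log2 differences was 0.18, so UGT2B15 at -0.36 lay just under 2 of them. Both UGT2B11 probes were low, at -1.31 and -0.79, the latter short of 2-fold. This comparison shares its control array with the knockdown comparison and its treated array with the LY2157299 comparison, so it is not a separate reading.

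UGT1A1 and UGT1A6, from the other large UDP-glucuronosyltransferase family, rose after knockdown in LNCaP. The UGT1A genes share most of their exons at another locus, so their probes may not separate them. Of the 15 listed genes outside the family 4 were measured after knockdown, and 2 were higher and 0 lower, against 1.11% of all genes higher. UGT1A1, the bilirubin enzyme, read 5.96 with shCtr, 8.45 with shFOXA1 and 7.18 with LY2157299, and UGT1A6, which conjugates simple phenols, read 5.58, 7.61 and 6.63. UGT1A3 stood at 0.95 after knockdown. With LY2157299 against shFOXA1, UGT1A1 passed 2-fold (-1.27), and UGT1A6 (-0.98) and UGT1A3 (-0.84) did not. With TGFB3 in LNRII, UGT1A6 was 1.16 higher, UGT1A1 stood at -0.48 and UGT1A3 at 0.22.

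Androgen-synthesising and reducing enzymes included strong increases. With TGFB3 4 of 15 measured genes were higher and 0 lower: AKR1C3, AKR1C4 and AKR1C2, reductases of steroids, at 3.79, 3.02 and 2.71, and HSD17B11, a dehydrogenase of androstane steroids, at 1.25. The share of all genes higher was 1.87%. The AKR1C genes are close paralogs, so their probes may not separate them. After knockdown 3 of 15 were higher, AKR1C2 (1.65), AKR1C4 (1.62) and HSD3B1, which oxidises steroid precursors (at least 1.15), and 0 lower. With LY2157299 AKR1C2 was lower (-1.15) and 0 were higher.

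Genes for the supply of UDP-glucuronic acid mostly stayed within 2-fold. Of 12 measured genes 1 was lower with TGFB3 (the hexokinase HK2, -1.11), and 0 passed 2-fold after knockdown or with LY2157299. UGDH, the dehydrogenase that makes UDP-glucuronic acid, stood at -0.08 with TGFB3, -0.12 after knockdown and -0.44 with LY2157299, and UGP2, which makes UDP-glucose, at 0.46, 0.26 and -0.22. Among transporters and sulfotransferases for steroid conjugates, 6 were measured after TGFB3 and after knockdown, and ABCC5, an export pump, was the 1 gene past 2-fold in each, at 1.33 and 1.25 higher. SULT2B1, a sulfotransferase of hydroxysteroids, stood at -0.56 with TGFB3 and -0.58 with LY2157299.

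**Figure D3:**
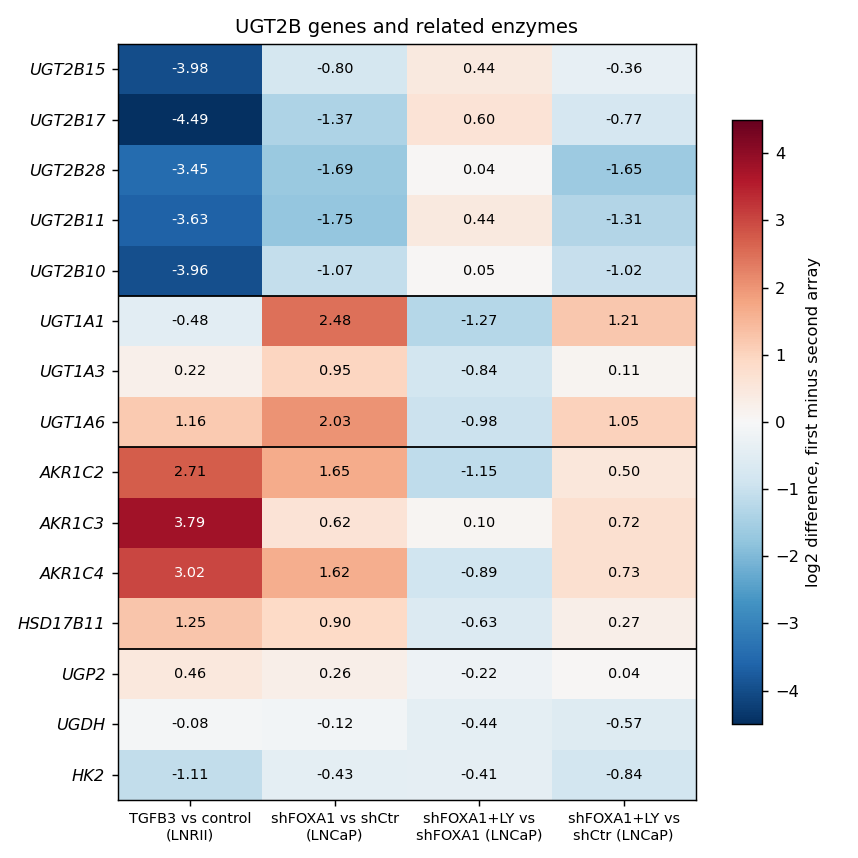
Log2 differences, first array minus second, for UGT2B genes, UGT1A genes, androgen-metabolising enzymes and enzymes of UDP-glucuronic acid supply (rows) in the 4 comparisons within a line (columns). Blue is lower and red higher. The UGT2B block is blue and the AKR1C block red with TGFB3 and after knockdown, and UGT1A1 and UGT1A6 are red after knockdown and blue with LY2157299.

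Of 21 transcription factors named in UGT2B regulation 7 were measured, and 0 passed 2-fold with TGFB3, after knockdown or with LY2157299. FOXA1 stood at -0.56 after knockdown, and the other 6 between -0.13 (HOXB13) and 0.12 (AHR) there. GATA2 (-1.09) and CEBPA (-1.21) were lower in LNRII with vehicle than with shCtr, and they were about as low in LNRII with TGFB3 (-1.22 and -1.17). Their part in the UGT2B values was not tested.

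The UGT2B genes lie together on chromosome 4, in the order UGT2B17, UGT2B15, UGT2B10, UGT2A3, UGT2B7, UGT2B11, UGT2B28 and UGT2B4. Detection alternated along this stretch, since the probes of UGT2A3 and UGT2B7 were undetected on every array between detected members. Of the 5 protein-coding genes on each side, only YTHDC1, an RNA-binding gene, was detected. It read between 9.85 and 9.91 on all 5 arrays and differed by at most 0.05 in any of the 6 comparisons. The neighbouring TMPRSS11, UGT2A, SULT1B1, SULT1E1 and CSN1S1 genes were undetected throughout.

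**Figure D4:**
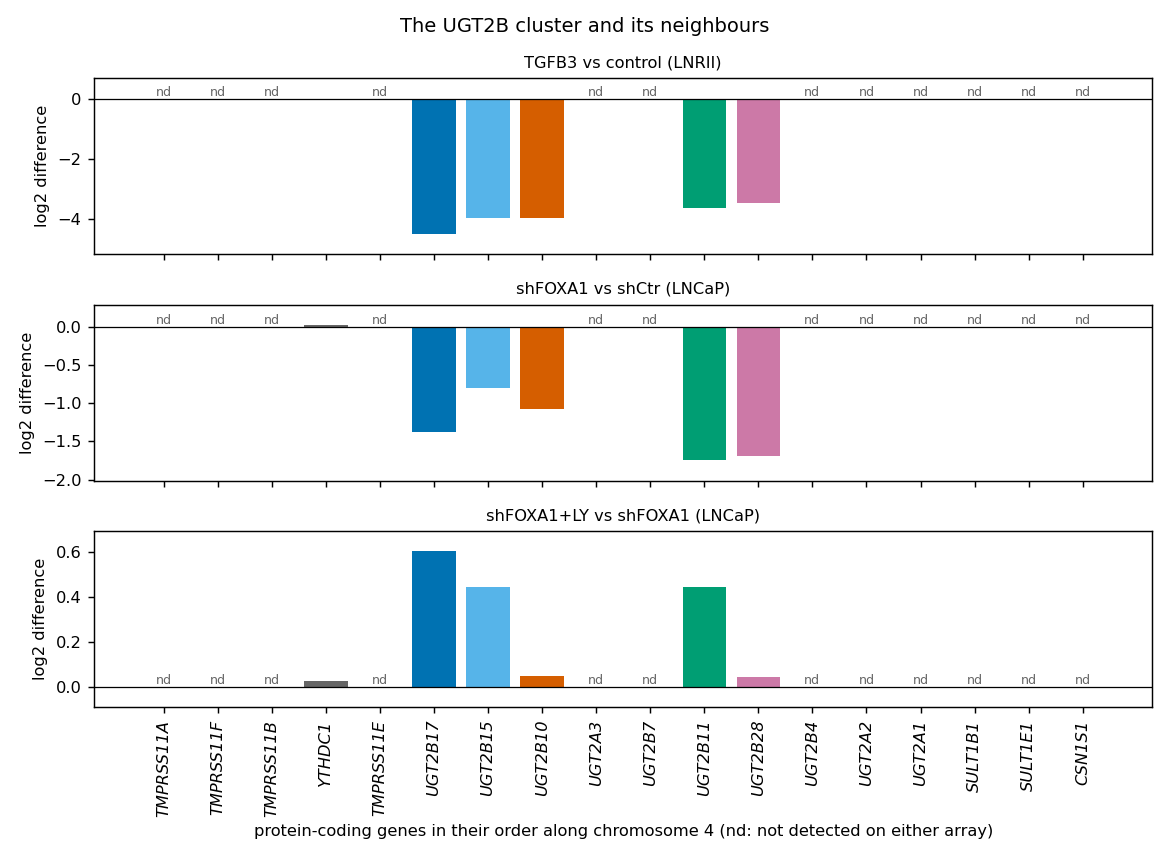
Log2 difference (y axis, its own scale in each panel) of the protein-coding genes in their order along chromosome 4 (x axis) for TGFB3 against vehicle, shFOXA1 against shCtr and shFOXA1 with LY2157299 against shFOXA1. Bars are single differences between 2 arrays and nd marks genes detected on neither. The UGT2B bars point down in the upper 2 panels, and in the lowest panel those of UGT2B17, UGT2B15 and UGT2B11 point up, while YTHDC1 stays near 0.

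Among 1878 genes outside the family whose values spanned at least 1, the 10 most like the mean UGT2B profile over the 5 arrays were KCNE3, LINC03019, C3orf36, SLC7A2, MDFI, SCLY, GEMIN8P4, RDM1, LBR and MAGOHB, with Pearson's r between 0.982 and 0.993. Their log2 values spanned 1.02 to 1.59, against 3.98 to 4.53 for the detected UGT2B genes. Of these 10, SLC7A2, an amino acid transporter, SCLY, RDM1 and LBR, a nuclear envelope receptor, were detected on every array. SLC7A2 read 7.40 in LNRII with vehicle, 6.07 with TGFB3, 6.31 with shCtr, 5.82 with shFOXA1 and 6.14 with LY2157299 added. KCNE3, LINC03019, C3orf36 and MDFI were detected in LNRII with vehicle only, so their likeness rests on that array.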

How the data were processed

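Total RNA of 5 cultures, 1 per condition, was measured on Illumina bead arrays and the submitters' processing notes name GenomeStudio (no version). The deposited scanner table gives an intensity per probe and array, not normalized per the file headers, and a detection p-value per probe, per the file headers. A second deposited table holds processed intensity values, 25.3% of them negative; the sources used here do not say how it was made, and it served as an alternative. Its column medians were 4.7 for LNRII and 4.5 for LNCaP. Its values are linear, and its background method stays unknown.

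Intensities were corrected and normalized with the neqc steps of limma 3.58.1 in R 4.3.3 (normexp background inferred from detection p, offset 16, quantile normalization over 5 arrays, log2). These steps were tested on simulated data with changes planted in bright probes only. Changes in dim probes were not simulated. A gene's value is that of its brightest probe (mean over arrays, among probes detected on at least 1), and comparisons took genes detected on at least 1 of the pair of arrays. An undetected side was raised to the lowest detected value of its array, so that a difference is then a lower bound ("at least"). The background share counts all measured genes past 2-fold. The number of arrays limits the precision. Of 47306 probes 30107 have 1 gene symbol, 8 several and 17191 none in the platform table; 30068 were found by Entrez identifier in the GRCh38.p14 gene table and 0 symbols changed. No build is named for the array, so only promoter windows carry coordinates. Promoter windows were aligned globally (match 1, mismatch -1, gap open -2, gap extension -0.5).

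The members and the lists were chosen with earlier results of these data known. Named genes are all members, FOXA1, the 10 genes most like the mean member profile, up to 4 genes of each list with the largest difference, further list genes given for comparison, and the neighbours on the chromosome. Software was matplotlib 3.10.9, numpy 2.4.6 and pandas 2.3.3 under Python 3.11.15. The 9 alternatives tried changed the background correction, scaling, offset, table, detection threshold, probe choice or floor.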

Additional observations from a re-analysis of the deposited data

How the results depend on the processing

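No paired analysis was possible because each condition has 1 array. Under 9 alternatives all 259 recomputed member differences kept their sign, and 53 moved by 1 probe SD or more. The 5 members with TGFB3 stayed lower by 2-fold under each alternative. Without background correction the member medians were -2.94 (TGFB3 against control), -0.92 (shFOXA1 against shCtr, with 2 members lower in place of 4), 0.19 (LY2157299 against shFOXA1), -0.55 (shFOXA1 with LY2157299 against shCtr), 2.42 (LNRII control against shCtr) and -0.52 (LNRII TGFB3 against shCtr), and the counts of all lower genes were 31, 15, 5, 20, 127 and 103 in place of 124, 42, 23, 57, 333 and 283. Higher genes then numbered 86, 49, 1, 37, 59 and 126 in place of 200, 124, 6, 101, 236 and 343. With an offset of 50 the medians of the first 4 were -3.25, -1.11, 0.27 and -0.65, and the counts of all lower genes 53, 22, 12, 27, 198 and 149. A larger offset or uncorrected background shrinks log2 differences of dim probes by construction. With detection p below 0.05 UGT2B7 also entered and the median with LY2157299 against shFOXA1 was 0.24. With detection p below 0.001 the median of shFOXA1 with LY2157299 against shCtr was -0.77. With the mean of all detected probes the median was -1.12 after knockdown and 0.20 with LY2157299 against shFOXA1; the cause was not tested. Members lower after knockdown numbered 3 with offset 50 or detection p below 0.001, and those lower in shFOXA1 with LY2157299 against shCtr 2 under these, without background correction and with median scaling, in place of 3. UGT2B10 ranged from -1.09 to -0.41 and UGT2B17 from -1.37 to -0.92 after knockdown, so either can fall short of 2-fold. UGT2B17 ranged from 0.37 to 0.67 and UGT2B28 from 0.02 to 0.06 with LY2157299 against shFOXA1. With 1 array per condition nothing here measures the spread between cultures, and signal near the detection floor limits UGT2B10 and the dim probes.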
